A study of Homo sapiens with 24 samples.

Results

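The genes described here make cholesterol and fatty acids. They are 31 genes chosen by name, from the cytosolic HMG-CoA synthase HMGCS1 to the fatty acid desaturases FADS1 and FADS2, with the controllers of the pathway INSIG1, SREBF1 and SREBF2. Of the 31, 30 were found among the 33087 genes with a symbol in the count table, by summing the counts of each gene's transcripts, and all 30 passed the filter on low counts. ACACA, an acetyl-CoA carboxylase, matched no transcript of the table and was not analysed here. The counts came from poly-A RNA of A549, an established human cell line from a lung adenocarcinoma, grown with serum. Cells were exposed to 100 nM of the synthetic glucocorticoid dexamethasone (dex) or to its vehicle ethanol (EtOH, 0.02% of the medium) and sampled every 2 h from 1 to 11 h, with 2 biological replicates for each treatment and time, 12 groups and 24 libraries in all. The treatment text of the labels gives 1 h for every library, and the duration given in the same labels was used.

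Cholesterol and fatty acids are both built from acetyl-CoA in the cytosol. The enzymes of both pathways are classic targets of the sterol regulatory element-binding proteins (SREBPs), membrane-bound transcription factors encoded by SREBF1 and SREBF2. When sterols are scarce, the SREBPs are cleaved and their active part enters the nucleus. INSIG1 holds them back in the endoplasmic reticulum, and INSIG1 is itself an SREBP target, which closes a feedback loop. In lung epithelium the fatty acid branch also feeds the making of surfactant lipids.

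Library totals ran from 6708864 to 13748598 counts, and the members held between 0.291% and 0.340% of them. The epithelial keratins KRT8 and KRT18 stood between 1437 and 5437 CPM (counts scaled to the library total), and ALDH1A1, which A549 expresses strongly, between 12237 and 18533 CPM. For these cell type markers CPM was taken without TMM factors, and for the members and related genes with them. Of the markers of other cell types, CD3E had 0 counts in every library, PTPRC at most 3 and VWF at most 1, PDGFRB at most 6 and COL3A1 at most 12, while CD68 stood at 2.59 to 5.97 CPM, COL1A1 reached 21.9 CPM and PECAM1 matched no row. Of the epithelial markers EPCAM was lowest, at 4.02 to 11.3 CPM. TSC22D3 and PER1, classic glucocorticoid targets, were higher in dex at all 6 times, and FKBP5 from 3 h on. In bulk RNA, a change in RNA per cell cannot be told apart from a change in the number of cells that express a gene.

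Short stretches of 5 member promoters are given here for the letters known to bind the pathway's regulators and their partners. They come from RefSeq promoters on GRCh38.p14, which run from 250 bases before to 50 bases after a gene's start. Of the 31 members, 27 had such a promoter. ACAT2, FDFT1, SQLE and FASN had none. The lines of INSIG1 and SC5D hold 30 bases and the others 80, written 5′ to 3′ on the strand of the gene, which is the plus strand for all 5. The capitals mark the motif named.
INSIG1, E-box CACGTG (chr7:155297811-155297840): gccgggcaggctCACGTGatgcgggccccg
SC5D, E-box CACGTG (chr11:121292628-121292657): gcgcgcggcgccCACGTGaccgcggagagc
SREBF2, sterol regulatory element TCACNCCAC (chr22:41832937-41833016): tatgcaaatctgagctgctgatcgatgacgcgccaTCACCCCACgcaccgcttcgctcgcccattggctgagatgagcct
MSMO1, CCAAT on the opposite strand (chr4:165327449-165327528): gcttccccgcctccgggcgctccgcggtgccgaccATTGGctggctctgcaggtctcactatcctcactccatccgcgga
SCD, CCAAT (chr10:100346983-100347062): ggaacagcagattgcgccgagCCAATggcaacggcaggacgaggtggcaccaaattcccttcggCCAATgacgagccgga

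The E-box began 55 bases before the start of INSIG1 and 131 bases before that of SC5D, and the sterol regulatory element 133 bases before that of SREBF2. These distances are from the start RefSeq gives. GENCODE 29 starts INSIG1 and SC5D further upstream, so that by its annotation both E-boxes lie within the first exon. Motifs were sought on both strands, and no motif's letters contain another's. TCACNCCAC stood in 1 of the 27 member promoters and in 1.15% of 27305 promoters overall. CACGTG stood in 3 of 27, those of INSIG1, SC5D and LSS, and in 7.43% overall. All 3 were called higher in dex at 5 h, so that CACGTG stood in 3 of 13 promoters (23.1%) of the members called higher then and in 0 of 13 of the other tested members. This split rests on 3 genes and was not tested. The call of SC5D at 5 h was lost under 7 of 13 alternative settings, and INSIG1 was called lower at 3, 9 and 11 h. CCAAT, the letters bound by NF-Y, a known partner of the SREBPs, stood in 18 of 27 (66.7%) and in 35.7% overall. GGGCGG, the GC box bound by SP1, stood in 25 of 27 (92.6%) and in 44.6% overall. The same groups held CCAAT equally often, in 9 of 13 promoters each, and GGGCGG in 12 of 13 each. MSMO1 and SCD, which went in opposite directions in dex, both carried CCAAT, as printed above. A match of letters is a description and not a site. Only these exact letters within these promoters were sought, so a missing match does not show that an element is absent. On GRCh38 with GENCODE 29, the genes themselves lie at chr7:155297776-155310235 on the plus strand (INSIG1), chr10:100347124-100364834 on the plus strand (SCD), chr17:82078333-82098332 on the minus strand (FASN) and chr12:125065379-125143333 on the plus strand (AACS), while the reads were mapped to transcripts and the table holds no coordinates.

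Levels differ widely among the members. Divided by transcript length (as TPM), the median over the 12 EtOH libraries was highest for ACLY (504 TPM), which makes cytosolic acetyl-CoA from citrate, followed by the desaturases FADS1 (234 TPM), SCD (193 TPM) and FADS2 (167 TPM). The sterol enzymes FDFT1 (113 TPM) and CYP51A1 (111 TPM) came next, with ranges over the EtOH libraries, 99.1 to 122 and 99.5 to 117 TPM, that overlapped. FASN, the fatty acid synthase, stood at 47.7 TPM and SREBF1 at 81.7 TPM against 25.4 TPM for SREBF2. The lowest were MVK (4.004 TPM) and the sterol reductase TM7SF2 (2.85 TPM). In EtOH, no member passed the edgeR test for a change over 1 to 11 h, against 3.15% of the 19884 features tested. The smallest adjusted p was 0.115, 7 members had an unadjusted p under 0.05, and DESeq2 called 2. Without EtOH replicate 1 of 9 h, edgeR called 7. From the lowest to the highest of the 6 EtOH means, a member moved by 1.06-fold (SQLE) to 2.09-fold (TM7SF2).

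The question at each time was which members differed between dex and EtOH. Calls among the members began at 3 h, were most at 5 h, where 14 of 15 were higher, and were fewer at 11 h. Over all features, calls were likewise fewest at 1 h, were most at 7 h and fell again by 11 h. SCD was called lower from 5 to 11 h and SREBF1 from 7 to 11 h. At 1 h, none of 30 was called higher or lower (edgeR quasi-likelihood F-test, adjusted p of at most 0.1), against 0.533% of all 19885 features called higher and 0.317% lower. The smallest adjusted p was 0.497, 2 members had an unadjusted p under 0.05, and DESeq2 called 0. Without dex replicate 1 of that time, edgeR called 1. At 3 h, 2 were higher (7.80% of all features) and 1 lower (5.09%). At 5 h, 14 were higher (11.6%) and 1 lower (11.4%). At 7 h, 8 were higher (13.3%) and 2 lower (12.4%). At 9 h, 5 were higher (9.89%) and 5 lower (8.40%), and at 11 h, 1 was higher (5.35%) and 3 were lower (3.26%). The median log2 fold change of the 30 was -0.01 at 1 h, -0.01 at 3 h, 0.28 at 5 h, 0.13 at 7 h, 0.07 at 9 h and 0.05 at 11 h, while that of all features stayed between -0.01 and 0.01. At 5 h, 24 of the 30 had a positive log2 fold change. Whether the dex and EtOH libraries of a gene overlapped is given below as a description only. With 2 libraries a group, groups can easily lie apart without any effect. The share of all features whose groups lay apart was not computed.

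**Figure D1:**
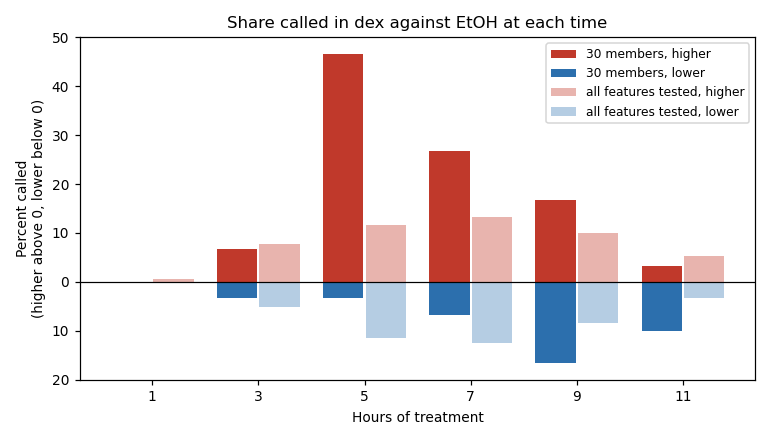
Percent of the 30 members (dark bars) and of all 19885 features tested (pale bars) called in dex against EtOH at an adjusted p of at most 0.1, by hours of treatment, higher above 0 and lower below 0. The members' share called higher exceeds that of all features most clearly at 5 h (14 of 30 against 11.6%), and at 11 h only 1 member is called higher.

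**Figure D2:**
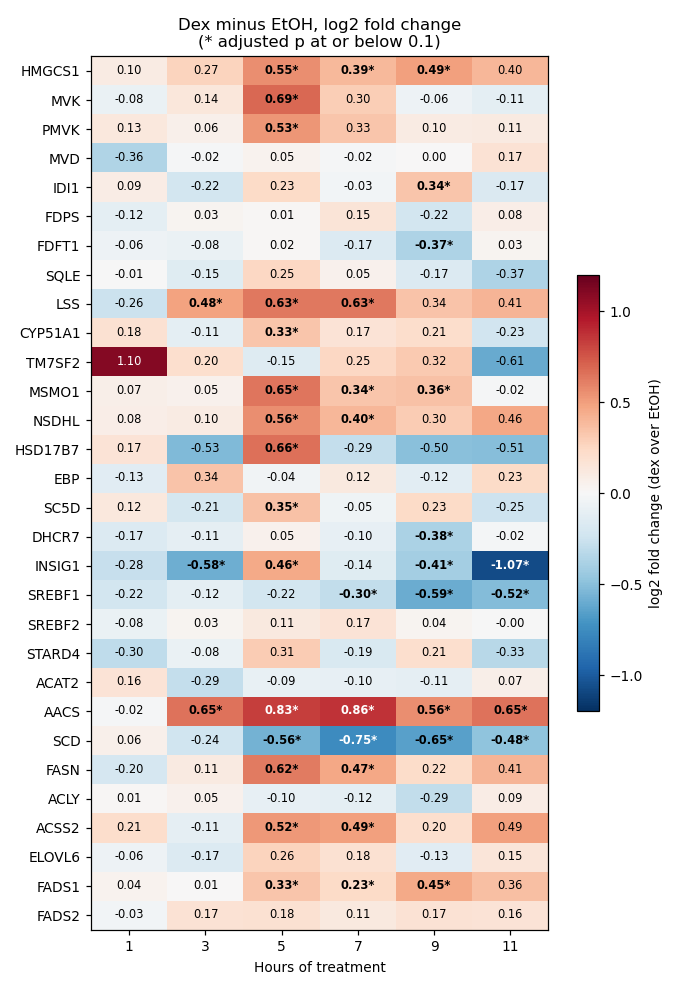
Log2 fold change of dex over EtOH for the 30 members (rows) at each time (columns), with 2 libraries per treatment. Stars mark an adjusted p of at most 0.1. The column at 5 h is the reddest, AACS is higher from 3 h on, and SCD is lower from 5 h on.

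Among the 7 genes of the mevalonate arm, which turns acetyl-CoA into isoprenoid units, 3 were called higher at 5 h, beside 11.6% of all features. HMGCS1 condenses acetyl-CoA with acetoacetyl-CoA. At 5 h it stood at 150 and 152 CPM in the dex libraries and at 105 and 101 CPM in EtOH. Dex lay above EtOH in both replicates with no overlap, a log2 fold change of 0.55 ± 0.10 (SE, n = 2 per group; edgeR adjusted p = 4.59e-05). At 7 h it stood at 150 and 147 CPM in dex against 114 and 113 CPM in EtOH (log2 fold change 0.39 ± 0.08, edgeR adjusted p = 0.000337). At 9 h it stood at 141 and 135 CPM against 101 and 94.7 CPM (0.49 ± 0.11 on the log2 scale, edgeR adjusted p = 0.00663). At 11 h the groups were still apart, at 154 and 120 CPM against 107 and 102 CPM, without a call (edgeR adjusted p = 0.186). At 3 h the values were 120 and 139 CPM against 119 and 96.8 CPM, and at 1 h 129 and 108 CPM against 113 and 108 CPM, with no call at either time. HMGCS1 was the only mevalonate gene called at more than 1 time.

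The kinases MVK and PMVK, which phosphorylate mevalonate in sequence, were called higher at 5 h only. At that time MVK stood at 7.86 and 5.37 CPM in dex against 3.48 and 4.65 CPM in EtOH (log2 fold change 0.69 ± 0.25). PMVK stood at 14.3 and 17.4 CPM against 11.4 and 10.6 CPM (0.53 ± 0.18). Dex lay above EtOH without overlap for MVK at 3, 5 and 7 h and for PMVK at 5, 7 and 11 h, called at 5 h alone. For neither gene was the effect at 5 h called different from that at 3 h or 11 h. The call of MVK was lost without replicate 1 of either treatment, under DESeq2, with counts per transcript, with an offset on GC content and at a threshold of 0.05. That of PMVK was lost without replicate 2 of either treatment and under DESeq2. IDI1, the isomerase that makes dimethylallyl diphosphate, was called higher at 9 h alone (0.34 on the log2 scale). That call and the call of HMGCS1 at 9 h were lost without either dex replicate, and that of IDI1 also under DESeq2, with no filter, with counts per transcript, with the GC-content offset and at a threshold of 0.05. ACAT2, MVD and FDPS were called at no time, with log2 fold changes between -0.36 and 0.17. The mRNA of ACAT2, the cytosolic acetoacetyl-CoA thiolase, shares sequence with SOD2 and TCP1 on the opposite strand, and the use of strand in counting is not given in the sources used here, so its counts are uncertain.

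In the sterol arm, 6 of 11 genes were called higher at 5 h, beside 11.6% of all features. LSS closes the sterol rings by making lanosterol. It rose earliest, at 3 h, with 29.3 and 23.5 CPM in dex against 16.9 and 20.6 CPM in EtOH (log2 fold change 0.48 ± 0.15, edgeR adjusted p = 0.0316). At 5 h it stood at 36.8 and 36.1 CPM against 24.8 and 22.4 CPM (0.63 ± 0.13, edgeR adjusted p = 0.000303), and at 7 h at 27.7 and 25.4 CPM against 16.9 and 17.6 CPM (0.63 ± 0.13, edgeR adjusted p = 0.000252). The dex libraries lay above both EtOH libraries at every time from 3 h to 11 h, and at 9 and 11 h the differences, 0.34 and 0.41 on the log2 scale, were not called. At 1 h LSS read 16.6 and 19.5 CPM in dex and 19 and 23.8 CPM in EtOH, and the groups overlapped. The call at 3 h was lost without dex replicate 1 or without EtOH replicate 1 of that time, under DESeq2 and with the GC-content offset.

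MSMO1 and NSDHL act one after the other to remove the methyl groups of lanosterol's derivatives. MSMO1 stood at 121 and 121 CPM in dex at 5 h against 72.6 and 82.1 CPM in EtOH (log2 fold change 0.65 ± 0.11, edgeR adjusted p = 6.16e-06), the sterol gene with the smallest p at that time. At 7 h it stood at 104 and 98.3 CPM against 77.0 and 83.4 CPM (0.34 ± 0.09), and at 9 h at 90.5 and 87.0 CPM against 74.7 and 63.9 CPM (0.36 ± 0.12, edgeR adjusted p = 0.0673). By 11 h the groups overlapped, at 93.7 and 65.5 CPM in dex and 86.9 and 74.1 CPM in EtOH. At 1 h it read 84.4 and 67.7 CPM in dex against 73.7 and 71.9 CPM, and at 3 h 81.9 and 84.7 CPM against 81.1 and 80.0 CPM. The call at 7 h was lost without dex replicate 1, and that at 9 h without either dex replicate or EtOH replicate 2, under DESeq2, with counts per transcript, with the GC-content offset and at a threshold of 0.05.

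NSDHL stood at 25.7 and 28.0 CPM in dex at 5 h against 16.6 and 19.7 CPM in EtOH (log2 fold change 0.56 ± 0.15, edgeR adjusted p = 0.00395). At 7 h it stood at 27.6 and 27.2 CPM against 21.8 and 19.8 CPM (0.40 ± 0.12, edgeR adjusted p = 0.0160), a call lost without either dex replicate, under DESeq2 and with counts per transcript. Dex also lay above EtOH without overlap at 9 h (23.8 and 23.3 CPM against 17.2 and 21.0 CPM) and at 11 h (22.3 and 27.0 CPM against 15.5 and 20.2 CPM), with no call. Its groups overlapped at 1 h, at 19.4 and 17.6 CPM in dex and 18.3 and 17.0 CPM in EtOH, and at 3 h, at 19.2 and 22.4 CPM and 21.2 and 17.8 CPM.

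CYP51A1, HSD17B7 and SC5D were called higher at 5 h alone. CYP51A1, the lanosterol demethylase, stood at 148 and 155 CPM in dex against 123 and 118 CPM in EtOH (log2 fold change 0.33 ± 0.10). HSD17B7, a sterol ketone reductase, stood at 6.66 and 5.49 CPM against 3.48 and 4.15 CPM (0.66 ± 0.25). SC5D, the sterol desaturase, stood at 30.2 and 27.1 CPM against 22.7 and 22.2 CPM (0.35 ± 0.14). The calls of HSD17B7 and SC5D were each lost without dex replicate 1 or without either EtOH replicate of 5 h. That of CYP51A1 was lost without replicate 2 of either treatment. Those of HSD17B7 and SC5D were also lost under DESeq2 and at a threshold of 0.05, and that of SC5D with counts per transcript and with no filter.

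FDFT1, the squalene synthase, and DHCR7, the last reductase on the way to cholesterol, were called lower at 9 h alone, with log2 fold changes of -0.37 and -0.38. Both calls were lost without either dex replicate, under DESeq2 and with counts per transcript. That of DHCR7 was also lost without EtOH replicate 2, with the GC-content offset and at a threshold of 0.05. SQLE, TM7SF2 and EBP were called at no time. SQLE, the squalene epoxidase and a slow step of the pathway, had log2 fold changes of 0.25 at 5 h and -0.37 at 11 h. TM7SF2 had the widest spread of all members, from 1.10 at 1 h to -0.61 at 11 h, at levels of 0.530 to 3.80 CPM over the 24 libraries.

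Of the 3 genes that encode or control the SREBPs, INSIG1 and SREBF1 were called and SREBF2 was not. INSIG1 crossed from lower to higher and back over the time course. At 3 h it stood at 40.8 and 46.0 CPM in dex against 63.0 and 67.1 CPM in EtOH, lower by a log2 fold change of -0.58 ± 0.12 (edgeR adjusted p = 0.000531). At 5 h it stood at 80.5 and 85.9 CPM against 55.3 and 65.6 CPM, now higher (0.46 ± 0.11, edgeR adjusted p = 0.00206). At 7 h the groups overlapped, at 58.8 and 59.4 CPM in dex and 57.2 and 73.3 CPM in EtOH. At 9 h it was lower again, at 43.8 and 45.1 CPM against 63.7 and 54.2 CPM (-0.41 ± 0.13, edgeR adjusted p = 0.0499). At 11 h it stood at 41.4 and 27.3 CPM against 76.7 and 67.8 CPM, the largest change of any member called (-1.07 ± 0.19, edgeR adjusted p = 0.00274). At 1 h dex was below EtOH in both replicates, at 46.5 and 40.0 CPM against 51.7 and 53.7 CPM, without a call. Over the whole course the EtOH libraries ranged from 51.7 to 76.7 CPM and the dex libraries from 27.3 to 85.9 CPM. From 9 to 11 h the mean went from 58.9 to 72.3 CPM in EtOH and from 44.5 to 34.4 CPM in dex. The call at 5 h was lost when the transcript with the most INSIG1 counts was tested alone (highest adjusted p over the alternatives 0.109), and that at 9 h without either dex replicate, under DESeq2 and with counts per transcript.

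SREBF1 was called lower at the last 3 times. At 7 h it stood at 76.4 and 78.5 CPM in dex against 91.5 and 98.4 CPM in EtOH (log2 fold change -0.30 ± 0.09, edgeR adjusted p = 0.0128). At 9 h it stood at 71.9 and 76.2 CPM against 111 and 113 CPM (-0.59 ± 0.11, edgeR adjusted p = 0.00187), and at 11 h at 77.7 and 99.4 CPM against 134 and 121 CPM (-0.52 ± 0.15, edgeR adjusted p = 0.0648). The groups did not overlap at these 3 times. Earlier, dex also lay below EtOH at 1 h (83.3 and 94.4 CPM against 99.5 and 107 CPM) and at 5 h (107 and 97.9 CPM against 126 and 112 CPM), without a call, and overlapped with it at 3 h (110 and 85.7 CPM against 98.3 and 113 CPM). The call at 7 h was lost without either dex replicate and in a joint fit of the 24 libraries, that at 9 h without dex replicate 1, and that at 11 h without either EtOH replicate, with counts per transcript and at a threshold of 0.05.

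SREBF2, whose product mainly drives cholesterol synthesis, was called at no time. Its dex libraries ranged from 47.3 to 72.3 CPM and its EtOH libraries from 54.8 to 66.4 CPM. Over the 6 times its log2 fold change lay between -0.08 and 0.17, with standard errors of 0.10 to 0.15. STARD4, which carries cholesterol between membranes, was not called either, at 0.31 on the log2 scale at 5 h and -0.33 at 11 h.

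**Figure D3:**
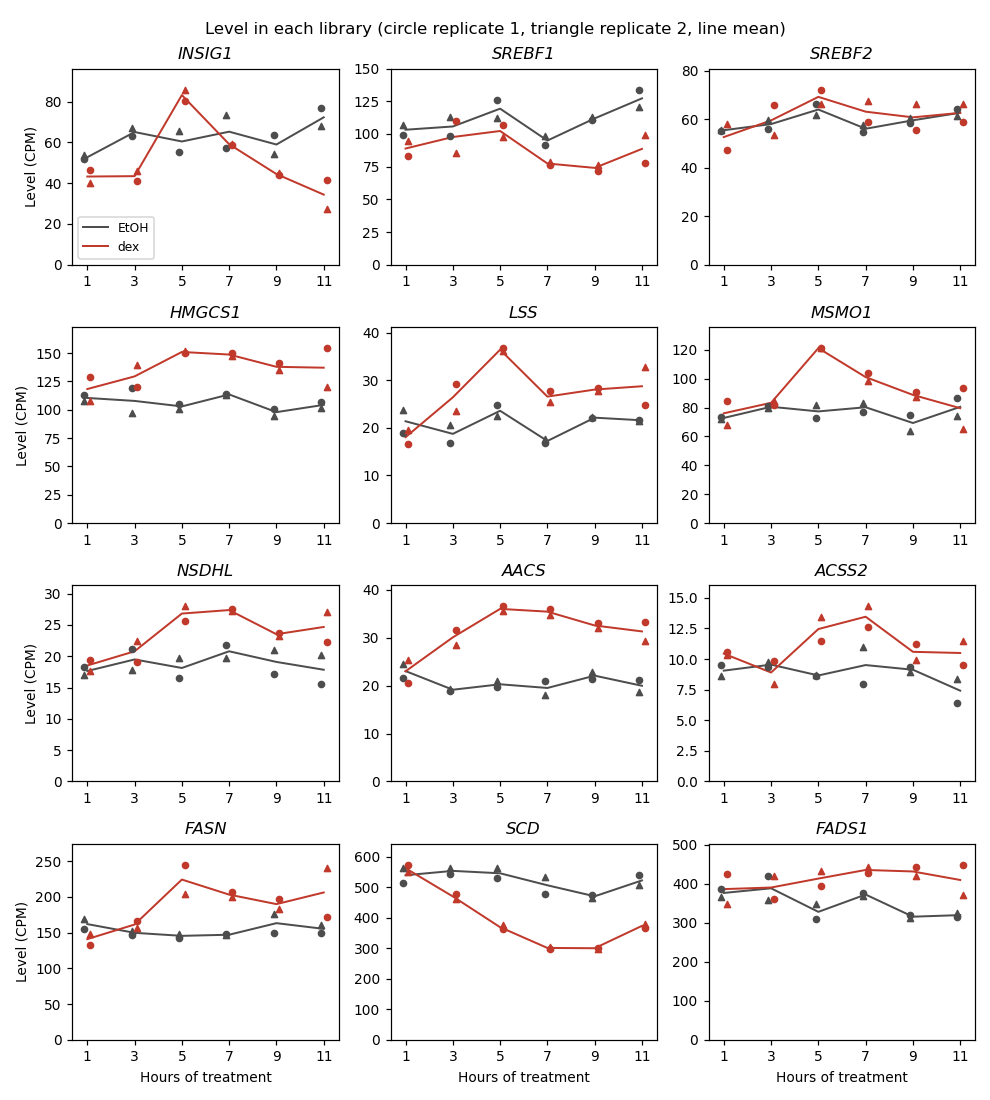
Level in CPM (TMM-scaled, axis from 0) of 12 members by hours of treatment, in each dex (red) and EtOH (grey) library, with circles for replicate 1, triangles for replicate 2 and lines through the means. INSIG1 in dex climbs above EtOH at 5 h only and ends below it, SCD in dex lies below EtOH from 3 h on, AACS in dex stays above EtOH from 3 h on, and SREBF2 overlaps at most times.

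The genes that supply and extend fatty acids split. AACS, which activates acetoacetate to acetoacetyl-CoA, was the member called most often, at all 5 times from 3 h on. At 3 h it stood at 31.7 and 28.5 CPM in dex against 18.9 and 19.4 CPM in EtOH (log2 fold change 0.65 ± 0.14, edgeR adjusted p = 0.00109). At 5 h it stood at 36.6 and 35.5 CPM against 19.7 and 20.9 CPM (0.83 ± 0.14, edgeR adjusted p = 5.21e-06), and at 7 h at 36.1 and 34.9 CPM against 20.9 and 18.1 CPM (0.86 ± 0.12, edgeR adjusted p = 4.99e-07). At 9 h it stood at 33.2 and 32.0 CPM against 21.4 and 22.8 CPM (0.56 ± 0.14), and at 11 h at 33.4 and 29.3 CPM against 21.2 and 18.8 CPM (0.65 ± 0.17). From 3 h on, the lowest dex library stood above the highest EtOH library of any time. At 1 h the groups overlapped, at 20.6 and 25.4 CPM and 21.5 and 24.5 CPM. The call at 9 h was lost without either dex replicate, that at 11 h without either EtOH replicate, and both when the transcript with the most AACS counts was tested alone (edgeR adjusted p = 0.537 and 0.194).

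ACSS2, which makes acetyl-CoA from acetate, rose at 5 h (11.5 and 13.4 CPM in dex against 8.60 and 8.71 CPM in EtOH, log2 fold change 0.52 ± 0.19, edgeR adjusted p = 0.0479) and at 7 h (12.6 and 14.3 CPM against 7.996 and 11.0 CPM, 0.49 ± 0.17, edgeR adjusted p = 0.0379). The groups were also apart at 1 h (10.5 and 10.3 CPM against 9.52 and 8.59 CPM), 9 h (11.2 and 9.94 CPM against 9.35 and 8.90 CPM) and 11 h (9.55 and 11.4 CPM against 6.43 and 8.40 CPM), with no call. At 3 h it read 9.84 and 7.96 CPM in dex and 9.37 and 9.72 CPM in EtOH. Its calls were lost under DESeq2 and when single libraries were left out, at 5 h dex replicate 2 or either EtOH replicate, at 7 h either dex replicate or EtOH replicate 1. The call at 7 h was also lost with counts per transcript. ACLY, at the head of the same supply, was called at no time, with log2 fold changes between -0.29 and 0.09.

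FASN, the multienzyme that builds palmitate, stood at 245 and 203 CPM in dex at 5 h against 143 and 148 CPM in EtOH (log2 fold change 0.62 ± 0.10, edgeR adjusted p = 7.75e-06). At 7 h it stood at 206 and 200.1 CPM against 148 and 146 CPM (0.47 ± 0.08, edgeR adjusted p = 1.41e-05). Dex remained above EtOH at 9 h (197 and 183 CPM against 150.2 and 176 CPM) and 11 h (172 and 240.5 CPM against 150.0 and 161 CPM), with no call. At 1 h it lay below, at 133 and 149 CPM against 155 and 168 CPM, and at 3 h above, at 166 and 156 CPM against 147 and 153 CPM, neither of them called.

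SCD, the desaturase that turns saturated into monounsaturated fatty acids, went down and was the member with the longest run of lower calls. It stood at 363 and 374 CPM in dex at 5 h against 529 and 562 CPM in EtOH (log2 fold change -0.56 ± 0.10, edgeR adjusted p = 2.12e-05). At 7 h it stood at 298 and 303 CPM against 478 and 534 CPM (-0.75 ± 0.08, edgeR adjusted p = 6.61e-10), the smallest p of any member at any time. At 9 h it stood at 302 and 298 CPM against 475 and 465 CPM (-0.65 ± 0.11, edgeR adjusted p = 0.000575), and at 11 h at 366 and 380.0 CPM against 538 and 506 CPM (-0.48 ± 0.13, edgeR adjusted p = 0.0430). The groups were already apart at 3 h, at 477 and 462 CPM against 544 and 562 CPM, without a call (edgeR adjusted p = 0.113), and overlapped at 1 h, at 574 and 550.2 CPM and 514 and 564 CPM. Without either EtOH replicate of 11 h the call at that time was lost. FASN and SCD, steps of one pathway, moved in opposite directions at 5 and 7 h.

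The desaturase FADS1, which makes polyunsaturated fatty acids, was higher at 5 h (393 and 433 CPM in dex against 309 and 347 CPM in EtOH, log2 fold change 0.33 ± 0.10), at 7 h (429 and 442 CPM against 377 and 368 CPM, 0.23 ± 0.07) and at 9 h (444 and 419 CPM against 318 and 312 CPM, 0.45 ± 0.11, edgeR adjusted p = 0.0102). It also lay above EtOH at 11 h (449 and 370.1 CPM against 315 and 324 CPM), with no call, and overlapped with it at 1 h (424 and 348 CPM against 387 and 366 CPM) and 3 h (362 and 419 CPM against 419 and 358 CPM). These calls were lost without some single libraries, at 5 h dex replicate 2 or EtOH replicate 1, at 7 and 9 h either dex replicate, and the call at 7 h was also lost in the joint fit. Its neighbour FADS2 overlaps FADS1 on the opposite strand of chromosome 11 and, like the elongase ELOVL6, was called at no time. The log2 fold change of FADS2 lay between -0.03 and 0.18 and that of ELOVL6 between -0.17 and 0.26.

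Called at 2 or more consecutive times were 8 members that rose (HMGCS1, LSS, MSMO1, NSDHL, AACS, ACSS2, FASN and FADS1), beside 9.77% of all features, and 3 that fell (INSIG1, SREBF1 and SCD), beside 8.48%. Under each of 13 alternative settings, the calls of AACS at 3, 5 and 7 h, HMGCS1, LSS and FASN at 5 and 7 h, MSMO1 and NSDHL at 5 h, SCD at 5, 7 and 9 h and INSIG1 at 3 and 11 h held. The counts at 9 and 11 h leaned on single libraries. At 9 h the 10 calls became 1 without dex replicate 1 and 2 without dex replicate 2. At 11 h the 4 calls became 1 without either EtOH replicate, 14 without dex replicate 1 and 7 without dex replicate 2. At 7 h the 10 calls became 5 without dex replicate 1 and 6 without dex replicate 2, and at 3 h the 3 calls became 6 without EtOH replicate 2.

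The step from 3 to 5 h and the step from 5 to 11 h were tested as differences between dex effects, in one edgeR fit over the 24 libraries. Between 3 and 5 h the effect went up for 6 of 30 members (2.23% of all features) and down for 0 (3.73%). They were INSIG1, by 1.04 ± 0.20 on the log2 scale (edgeR adjusted p = 0.00207), HSD17B7 (1.19 ± 0.35), CYP51A1 (0.45 ± 0.13), MSMO1 (0.60 ± 0.18), SC5D (0.56 ± 0.18) and FASN (0.52 ± 0.17). Between 5 and 11 h the effect went down for 5 of 30 (0.674% of all features) and up for 0 (1.69%). They were INSIG1, by -1.53 ± 0.21 (edgeR adjusted p = 9.16e-05), HSD17B7 (-1.17 ± 0.35), MSMO1 (-0.66 ± 0.18), SQLE (-0.62 ± 0.17) and CYP51A1 (-0.56 ± 0.13). INSIG1, HSD17B7, CYP51A1 and MSMO1 were in both groups, and both contrasts use the libraries of 5 h. The contrast of 5 h against 3 h was added after the values had been seen.

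Leaving out single libraries cut these counts. The 6 upward steps became 1 without dex replicate 1 of 3 h, 2 without replicate 1 of either EtOH group, and 3 without dex replicate 2 of 3 h, dex replicate 1 of 5 h or EtOH replicate 2 of 5 h. The 5 downward steps became 1 without EtOH replicate 1 of 11 h, 2 without dex replicate 2 of 5 h, dex replicate 2 of 11 h or either EtOH replicate of 5 h, and 3 without dex replicate 1 of 5 h or EtOH replicate 2 of 11 h. INSIG1 was called in both contrasts under all of these. With all libraries kept, 25 of 30 members were not called for 11 h against 5 h. AACS, SCD and FADS1 were among them, with differences of -0.18 ± 0.19, 0.08 ± 0.12 and 0.02 ± 0.15. A difference that is not called does not show that an effect lasted.

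**Figure D4:**
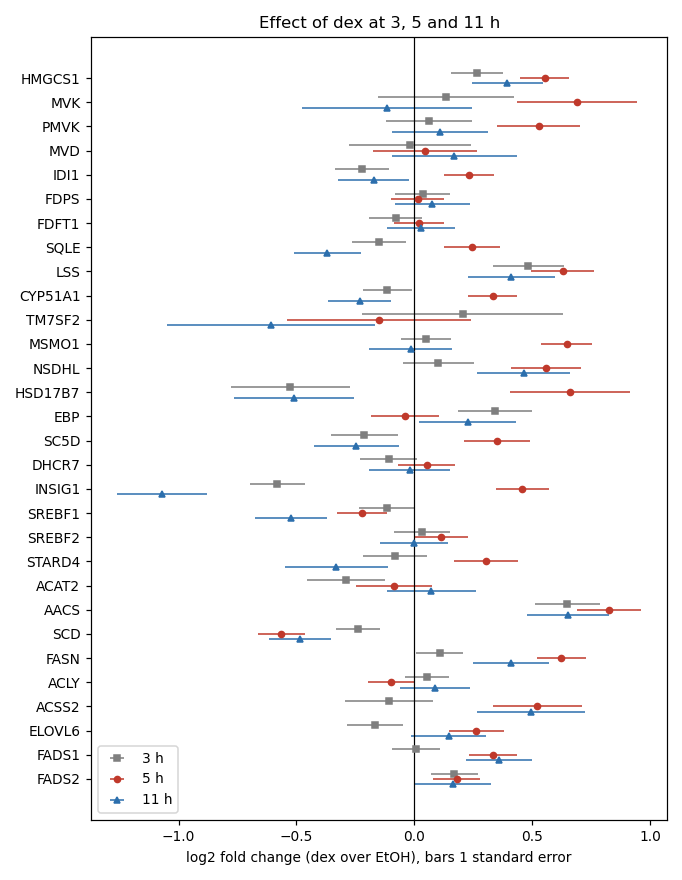
Log2 fold change of dex over EtOH for the 30 members at 3 h (grey squares), 5 h (red circles) and 11 h (blue triangles), with bars of 1 standard error. INSIG1 moves from -0.58 to 0.46 and on to -1.07, and SCD lies below 0 at all 3 times. HSD17B7, CYP51A1, SC5D, IDI1, SQLE, STARD4 and DHCR7 also lie below 0 at 3 and 11 h and above 0 at 5 h. Of the values of these genes shown, only those of HSD17B7, CYP51A1 and SC5D at 5 h were called.

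The 2 dex libraries of 11 h differed from each other more than most pairs of replicates, with a chi-square per degree of freedom of 14.7 where other pairs ran from 2.30 to 11.0. Over the 30 members, the log2 ratio of replicate 2 to replicate 1 was set against the GC content of each gene (35.5% to 65.3%). GC content was the mean over a gene's transcripts, weighted by their counts. Pearson's r across genes was 0.789 in dex and 0.506 in EtOH at 11 h, and 0.730 in dex and 0.609 in EtOH at 1 h. From 3 to 9 h it was -0.535, -0.182, -0.334 and 0.162 in dex and 0.288, -0.288, 0.0731 and 0.371 in EtOH, so that it differed in sign between groups. Genes are not independent replicates and share the 2 libraries, so no p is given. GC-rich FASN read 172 and 240.5 CPM in these 2 libraries, and AT-rich MSMO1 93.7 and 65.5 CPM. The fold changes themselves had r with GC content between -0.132 and 0.376 over the 6 times. The part of GC content in the calls at 11 h was not tested beyond the correction described with the alternatives.

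**Figure D5:**
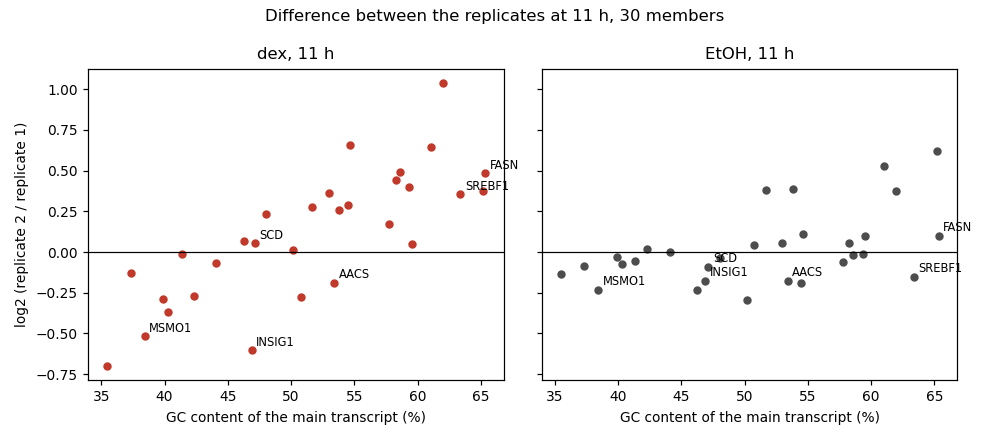
Log2 ratio of replicate 2 to replicate 1 for the 30 members at 11 h, by GC content in percent, in dex (left) and EtOH (right). GC content is the mean over each gene's transcripts, weighted by counts, although the axis label names the main transcript. In dex the ratio climbs with GC content (r = 0.789), with INSIG1 below the trend, and in EtOH it climbs less (r = 0.506).

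Around the members stand 40 related lipid genes, 39 of them tested. In dex 5, 10, 15, 10 and 4 of them were higher at 3, 5, 7, 9 and 11 h (7.80, 11.6, 13.3, 9.89 and 5.35% of all features), and 3, 5, 3, 4 and 1 lower (5.09, 11.4, 12.4, 8.40 and 3.26%), with none called at 1 h. The 4 acyl-CoA synthetases, which activate free fatty acids, were all higher at 5, 7 and 9 h. ACSL1 stood at 222 and 215 CPM in dex at 5 h against 22.7 and 25.5 CPM in EtOH (log2 fold change 3.18 ± 0.12, edgeR adjusted p = 1.31e-25), and ACSL5 at 6.77 and 8.73 CPM against 0.614 and 0.664 CPM (3.57 ± 0.35). ACSL3 was higher at all 5 times from 3 h, most at 9 h, with 381 and 390 CPM against 217 and 217 CPM (0.83 ± 0.11). The changes of ACSL1 and ACSL5 at 5 h were larger on the log2 scale than any called among the members. ABCA1, which exports cholesterol, was higher at all 5 times from 3 h and stood at 32.0 and 29.2 CPM at 3 h against 15.1 and 16.3 CPM (0.96 ± 0.14). MYLIP, a ubiquitin ligase of the sterol response, was lower at 3 h (2.38 and 2.80 CPM against 4.63 and 5.40 CPM, -0.95 ± 0.27) and 5 h. MLXIPL, a carbohydrate-responsive transcription factor of fatty acid synthesis, was higher at 5, 7 and 9 h, at 2.29 and 2.24 CPM at 5 h against 0.614 and 0.747 CPM (1.70 ± 0.45). Of the 4 genes of SREBP processing, 1 was called, INSIG2, higher at 5 and 7 h and named after its values were seen.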

How the data were processed

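A549 libraries were single-end reads of 50 bases. The authors mapped them to GENCODE transcripts with Bowtie and counted reads per transcript with SAMtools (hg19 in the submitters' processing notes), and deposited raw counts, not scaled for depth or length. Use of strand and of reads with several matches is not given in the sources used here.

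Counts were summed per gene through GENCODE 29 identifiers without version (110262 of 119207 transcripts, 94.1% of counts, the rest kept as features of their own). Groups came from the labels. Tests used edgeR 4.0.16 in R 4.3.3, with TMM, filterByExpr over the 12 groups, the robust quasi-likelihood F-test, the 4 libraries of each time and Benjamini-Hochberg adjustment over 19885 features, called at 0.1. Standard errors are the log2 fold change over the square root of F. Differences between times used one fit over 24 libraries. In data simulated for 5 h over 19885 genes, the test recovered 55.2% of 1.5-fold, 91.0% of 2-fold and 98.5% of 4-fold changes, with 203 calls of which 19.7% were wrong, above the nominal rate. The simulation changed far fewer genes than were called at 5 h, all of them above a floor on mean counts. Its rates therefore need not hold for the data. Libraries of 6708864 to 13748598 counts set the precision. The p-values weigh a difference against the spread between replicates, which edgeR estimates for each feature with information shared over all features.

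The members and lists were chosen with earlier results of these data known. Values in every library are given for INSIG1, SREBF1, SREBF2, SCD and FASN and for members called at 2 or more consecutive times. Related genes were named where called at 2 or more consecutive times, at most 6, taken by mean absolute log2 fold change, an order chosen after the values were seen. Promoters are the entry listed first for a symbol in RefSeq. Shared sequence was sought with BLAST+ 2.17.0. TPM and motif counts were computed in Python 3.11.15, and figures drawn with matplotlib 3.10.9.

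Alternatives were DESeq2 1.42.0 (its likelihood ratio test for the EtOH course), its size factors in edgeR, no filter, counts per transcript, a minimum of 10 counts in all libraries, a joint fit of the 24 libraries, a replicate block, a threshold of 0.05, leaving out each library and, added after the data were seen, an offset on GC content.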

Additional observations from a re-analysis of the deposited data

Results flagged for a closer look

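The effect of dex on single members differed between times by more than the spread between replicates (edgeR quasi-likelihood F-test of the difference, Benjamini-Hochberg adjustment, 24 libraries). The differences at 11 h against 5 h, in log2 units, were -1.53 for INSIG1 (adjusted p = 9.16e-05), -1.17 for HSD17B7 (adjusted p = 0.0944), -0.66 for MSMO1 (adjusted p = 0.0710), -0.62 for SQLE (adjusted p = 0.0648) and -0.56 for CYP51A1 (adjusted p = 0.0226). At 5 h against 3 h they were 1.04 for INSIG1 (adjusted p = 0.00207), 1.19 for HSD17B7 (adjusted p = 0.0518), 0.60 for MSMO1 (adjusted p = 0.0628), 0.56 for SC5D (adjusted p = 0.0810), 0.52 for FASN (adjusted p = 0.0874) and 0.45 for CYP51A1 (adjusted p = 0.0482). HSD17B7, at 3.31 to 7.40 CPM, rests on the fewest counts of these genes, 1191 over the 24 libraries. It shares 1033 bases at 98.4% identity with HSD17B7P2, and CYP51A1 shares 1510 bases at 96.6% identity with CYP51A1P1. No counts were found for HSD17B7P2 or CYP51A1P1. How reads with several matches were placed is not given in the sources used here, so the counts of HSD17B7 and CYP51A1 are uncertain. SQLE was called at no single time, and its contrast joins 0.25 at 5 h with -0.37 at 11 h.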

How the results depend on the processing

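No called log2 fold change of a member changed sign under any alternative. Of 53 called values, 16 were no longer called under DESeq2, 21 with counts per transcript, 14 at a threshold of 0.05, 5 with the GC-content offset, 4 with no filter, and 0 with a filter of 10 counts, DESeq2's size factors or the replicate block. Members called moved to 5 at 9 h and 2 in the EtOH course under DESeq2. With counts per transcript they moved to 4 at 9 h, 2 at 11 h, 2 for 11 h against 5 h and 1 for 5 h against 3 h, and at a threshold of 0.05 to 2 for each contrast. One fit over 24 libraries gave 10 at 11 h, no filter gave 4 in the EtOH course, the GC-content offset 5 at 3 h, and the replicate block 1 at 1 h. Leaving out single libraries gave 0 to 1 members at 1 h, 3 to 6 at 3 h, 10 to 14 at 5 h, 5 to 12 at 7 h, 1 to 15 at 9 h, 1 to 14 at 11 h, 1 to 7 for 11 h against 5 h, 1 to 4 for 5 h against 3 h and 0 to 7 in the EtOH course. The causes were not tested. Deviations of replicates with the same number had correlations of -0.059 to 0.135 by time, over 0.1 at 1 and 9 h only, so the numbers were not taken as pairs. Over all features, calls at 3, 5, 7, 9 and 11 h went from 2564, 4569, 5119, 3637 and 1712 to 1239, 2481, 2570, 1928 and 1125 under DESeq2. At 1 h, 169 became 301 with no filter, 638 with the replicate block and 261 with the GC-content offset, at 11 h one fit gave 2954, and in the EtOH course 626 became 2047 with no filter, 237 at 0.05 and 246 with the GC-content offset. For 11 h against 5 h, 470 became 251 at 0.05 and 748 with the GC-content offset, and for 5 h against 3 h, 1185 became 777 at 0.05. Leaving out single libraries gave 93 to 762 at 1 h, 1532 to 2997 at 3 h, 2209 to 5872 at 7 h, 1546 to 6107 at 9 h, 855 to 5763 at 11 h, 196 to 1092 and 695 to 955 for the contrasts and 23 to 2301 in the EtOH course. The offset was fitted on the 15325 features (77.1%) with a GC content, under 80%, so the check is void over all features, while all 30 members had a value. Of members not called, 17 at 1 h, 14 at 3 h, 6 at 5 h, 9 at 7 h, 7 at 9 h and 12 at 11 h changed sign under some alternative. With 2 libraries a group, a leave-out assumes that the lone library varies like the others.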
